A study of Mus musculus with 14 samples.

Results

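The 51 genes described here encode proteins that act in mitosis: the cyclins and kinases that start it, the spindle and its motors, the kinetochores, the checkpoint that times anaphase, and the ring that divides the cell. The list was chosen by gene symbol from textbook roles, with no measured value in the rule but with earlier results of these data known. All 51 were rows of every table, out of 19959 genes listed in at least 1 of them. The comparison used 14 bulk RNA-seq libraries of CD8+ T cells that had infiltrated E.G7 tumors in mice (E.G7 is a lymphoma line made to express ovalbumin), which fall into 3 experiments and 7 groups of 2 libraries. In the first experiment, CD8+ tumor-infiltrating lymphocytes (TILs) of Bcl6-RFP mice carrying subcutaneous tumors were sorted on day 21 into Bcl6+ cells, cells labelled DN (an abbreviation the labels do not spell out), and TIM-3+ cells. TIM-3 is a receptor found on T cells late in exhaustion. In the second, OT-I cells, whose transgenic receptor recognises an ovalbumin peptide, were recovered from E.G7 tumors about day 8 after transfer as Prdm1-overexpressing cells and co-transferred control cells. The third experiment did the same with Bcl6-overexpressing cells and its own controls. Prdm1 encodes the repressor Blimp-1, and Bcl6 encodes a repressor that antagonises it. The vector in the control cells is not named in the labels, nor is it said whether the 2 libraries of a group came from separate mice, so the p-values measure only the spread between these libraries, which may be technical.

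Most of these genes are transcribed in waves late in the cell cycle. In quiescent cells and in G1 the DREAM complex holds them off through a short element near the transcription start, the cell cycle genes homology region (CHR). In dividing cells MYB (Mybl2 encodes one) and Foxm1 join the same element, while NF-Y binds CCAAT boxes just upstream. Their transcripts are therefore commonly read as a measure of how many cells in a population are in G2 or mitosis. In bulk RNA such a reading has a limit, since fewer dividing cells and less RNA per dividing cell cannot be told apart.

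RefSeq promoter windows (GRCm38.p6, 250 bases before to 50 after the start) were at hand for 41 of the 51 genes. Ccna2, Spc24, Aurkb, Incenp, Kif20a, Foxm1, Cdca2, Tpx2, Cdc25c and Pbk had no entry. A CHR, searched as TTTGAA or TTCGAA on both strands, lay in the window of 33 of the 41 genes (80.5%), against 21.7% of the 27025 genes with a window and 16.8% of the 7921 genes with a window that were tested in TILs. CCAAT, searched on both strands, lay in 30 of 41 (73.2%), against 41.1% and 43.6%. Both occurred in 28 of 41 (68.3%), against 8.61% and 7.10%. The median GC content of the windows was 59.0% for the members and 60.7% for the tested genes. A match is a run of letters, not a measured site.

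The final 120 bases before the start are printed for 8 genes that the results below turn on, to show how the element sits in genes that moved together and in genes that did not. Capitals mark CHR matches (TTTGAA or TTCGAA, or TTCAAA read from the other strand) and CCAAT matches (CCAAT, or ATTGG read from the other strand), all 5′ to 3′ on the gene's own strand. Cdk1 (chr10:69352913-69353032, minus strand), Cdc20 (chr4:118437344-118437463, minus), Top2a (chr11:99024190-99024309, minus), Kif22 (chr7:127042421-127042540, minus) and Kif11 (chr19:37376262-37376381, plus) hold a CHR that begins 15 to 23 bases before the start. Ube2c (chr2:164769809-164769928, plus) holds one 29 bases before it. Cenpm (chr15:82244337-82244456, minus) holds one 83 bases before it and no CCAAT box in these bases. Birc5 (chr11:117849117-117849236, plus) holds neither motif.
Cdk1: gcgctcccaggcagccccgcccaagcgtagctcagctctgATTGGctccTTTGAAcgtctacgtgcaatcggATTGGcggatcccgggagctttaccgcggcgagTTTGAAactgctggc
Cdc20: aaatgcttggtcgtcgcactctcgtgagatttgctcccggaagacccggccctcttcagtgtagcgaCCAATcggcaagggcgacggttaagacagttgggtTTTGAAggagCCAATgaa
Top2a: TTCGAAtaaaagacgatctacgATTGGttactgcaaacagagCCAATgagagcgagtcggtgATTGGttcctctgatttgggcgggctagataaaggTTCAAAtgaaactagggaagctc
Kif22: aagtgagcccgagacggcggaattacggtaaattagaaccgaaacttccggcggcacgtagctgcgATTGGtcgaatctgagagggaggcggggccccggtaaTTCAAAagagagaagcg
Kif11: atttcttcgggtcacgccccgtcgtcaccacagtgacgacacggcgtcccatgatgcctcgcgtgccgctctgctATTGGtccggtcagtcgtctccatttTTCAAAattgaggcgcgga
Ube2c: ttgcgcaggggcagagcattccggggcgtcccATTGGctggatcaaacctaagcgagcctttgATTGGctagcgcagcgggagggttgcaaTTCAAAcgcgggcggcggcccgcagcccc
Cenpm: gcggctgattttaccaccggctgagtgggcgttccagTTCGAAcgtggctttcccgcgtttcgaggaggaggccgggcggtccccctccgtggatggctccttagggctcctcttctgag
Birc5: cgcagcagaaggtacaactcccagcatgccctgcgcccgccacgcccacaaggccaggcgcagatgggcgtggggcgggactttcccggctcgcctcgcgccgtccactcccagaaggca

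The 8 genes with a window but no CHR match were Birc5, Ccnb1, Cenpe, Mad2l1, Mybl2, Nuf2, Nusap1 and Tacc3, and 6 of them, all but Ccnb1 and Cenpe, had no CCAAT match either. A BCL6-type motif, TTCNNNGAA (its own reverse complement), was in the window of 1 of 41 genes, against 9.55% of all genes with a window. A Blimp-1-type motif of 10 bases, searched on both strands, was in 0 of 41, against 1.28%. A shorter form that overlaps it, AGNGAAAG, was searched after that result had been seen, and was also in 0 of 41, against 9.91%. A window without a match says only that these letters are not in it.

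The libraries held 18309162 to 22322079 counts, of which the 51 genes took 0.195% to 0.628%, and the thinnest member count in any library was 56 reads (Cdc25c in Bcl6+ TIL library 1). The sorted or forced genes matched the labels: Bcl6 was at 426 and 405 CPM (counts scaled to library size, with trimmed mean of M values factors) in Bcl6+ TILs and 14.8 and 18.1 in TIM-3+ TILs, and at 93.4 and 67.1 in Bcl6-overexpressing against 4.08 and 3.81 in control OT-I cells. Prdm1 was at 155 and 193 CPM in Prdm1-overexpressing and 109 and 89.4 in control OT-I cells. Bcl6 was also higher in the Prdm1-overexpressing cells, at 19.6 and 20.4 CPM against 7.68 and 8.83 in their controls. Havcr2, which encodes TIM-3, was at 1301 and 1357 CPM in TIM-3+, 201 and 175 in DN and 58.5 and 33.1 in Bcl6+ TILs. Cd8a and Cd3e, which define the labelled cell type, were at no less than 509 and 299.5 CPM in any library. Their levels were not even across TILs. A list of 11 CD8 T cell identity genes summed to 7626 to 7670 CPM in Bcl6+, 8401 to 8453 in DN and 11198 to 11337 in TIM-3+ TILs. Of these 11, 9 were lower and 1 higher in Bcl6+ than in TIM-3+ TILs at an adjusted p under 0.05 (edgeR). Markers of macrophages and monocytes, 13 genes, moved with the groups. They summed to 286 to 319 CPM in Bcl6+, 169 to 179 in DN and 61.9 to 77.4 in TIM-3+ TILs.

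As a group, the mitosis genes were lowest in Bcl6+ TILs, slightly higher in DN and far higher in TIM-3+ TILs. Their summed level was 1923 and 1863 CPM in the 2 Bcl6+ libraries, 2301 and 2321 in the 2 DN libraries and 6179.7 and 6322 in the 2 TIM-3+ libraries. The 3 groups did not overlap. Within the OT-I experiments, the sum was 5169.6 and 5298 in controls and 6284 and 6287 in Prdm1-overexpressing cells, and 6253 and 6048 in controls and 4123 and 4325 in Bcl6-overexpressing cells. The 3 experiments were scaled separately, and levels are compared only inside each one.

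**Figure D1:**
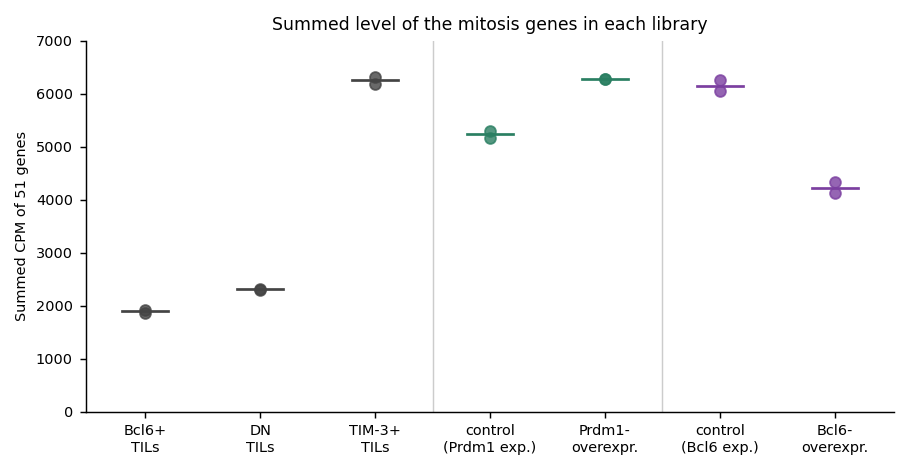
Summed CPM of the 51 mitosis genes (y axis) in each of the 14 libraries, by group (x axis). Points are libraries and bars are group means. TIM-3+ TILs sit near 6251 CPM, above DN at 2311 and Bcl6+ at 1893, and Bcl6-overexpressing OT-I cells sit at 4224 below their controls at 6150.

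Per length, on the FPKM scale (a value corrected for gene length and depth), the most abundant member was Ccnb2, a B-type cyclin that activates Cdk1, in 5 of the 7 groups. It averaged 25.1 ± 0.813 FPKM in Bcl6+, 42.0 ± 0.353 in DN and 92.6 ± 2.56 in TIM-3+ TILs (SD, n = 2 here and below). The exceptions were Bcl6+ TILs, where Bub3 led with 25.6 ± 2.74 FPKM, and Bcl6-overexpressing cells, where Cdc20 led with 84.5 ± 14.2. Bub3 is a checkpoint protein that has roles outside mitosis, and its level moved little: it ranked first of 51 in Bcl6+ and 15 of 51 in TIM-3+ TILs.

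All 51 genes were lower in Bcl6+ than in TIM-3+ TILs at an adjusted p under 0.05 (edgeR quasi-likelihood test, Benjamini-Hochberg over the 9748 genes tested), and for each the 2 groups were apart. Of all tested genes, 19.6% were lower and 19.1% higher at that threshold. The share of all tested genes with groups apart was not counted for TILs. The median change of the members was -2.06 on the log2 scale (median of all genes 0.01), and 47 of 51 differed by at least 2-fold. The range ran from -3.25 for Ube2c to -0.39 for Cdc25b.

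Among the genes of mitotic entry, Ccna2 encodes cyclin A2, which works from S phase into early mitosis. It stood at 32.5 and 28.6 CPM in Bcl6+, 57.2 and 46.1 in DN and 249 and 228 in TIM-3+ libraries, with a log2 change between Bcl6+ and TIM-3+ of -2.96 ± 0.14 (edgeR adjusted p = 1e-09). The TIM-3+ libraries stood far above the others, and the 3 groups did not overlap. Cdk1, the kinase that drives mitosis, was at 22.9 and 24.6 CPM in Bcl6+ and 111 and 98.1 in TIM-3+ libraries (-2.14 ± 0.15, edgeR adjusted p = 9.4e-08). Cdc25c, a phosphatase that activates Cdk1, was the thinnest of this set. It was at 2.65 and 3.10 CPM in Bcl6+, 4.94 and 3.33 in DN and 15.2 and 22.5 in TIM-3+ libraries. Its relative Cdc25b behaved differently in size: 97.1 and 100.4 CPM in Bcl6+ and 126 and 134 in TIM-3+ libraries, a change of -0.39 ± 0.10 (edgeR adjusted p = 0.0086). Under total-count scaling Cdc25b and Bub3 were no longer called, and Cdc25b also lost its call without TIM-3+ library 2.

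Ube2c and Cdc20 act with the anaphase-promoting complex, the ubiquitin ligase that ends metaphase. Ube2c, its ubiquitin-conjugating enzyme (chr2:164769898-164778822 in GENCODE M21, GRCm38, protein-coding), was at 16.9 and 16.4 CPM in Bcl6+, 26.3 and 30.4 in DN and 152 and 165 in TIM-3+ libraries. It had the largest change of the 51 both between Bcl6+ and TIM-3+ (-3.25 ± 0.15, edgeR adjusted p = 8.9e-10) and between TIM-3+ and DN (2.48 ± 0.14, edgeR adjusted p = 2.4e-08). Cdc20, the coactivator, was at 44.7 and 34.8, 55.7 and 64.6 and 142 and 157 CPM in the same order. The core of that complex is present in cycling and resting cells. In a list of 17 genes named for that core, 4 were lower and 0 higher in Bcl6+ than in TIM-3+, with a median of -0.06. Of all tested genes, 19.6% were lower. The 4 were Fbxo5 (-2.36), Anapc5 (-0.53), Anapc11 (-0.66) and Anapc15 (named after its value was seen). Fbxo5 encodes an inhibitor of the complex and not a core subunit.

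The chromosomal passenger complex corrects faulty attachments and later marks the cleavage site. Its 4 genes were all lower in Bcl6+ than in TIM-3+ TILs. Birc5, which encodes survivin, was at 22.8 and 14.7 CPM in Bcl6+, 40.9 and 33.1 in DN and 130.1 and 137 in TIM-3+ libraries (-2.83 ± 0.20 between Bcl6+ and TIM-3+, edgeR adjusted p = 6.6e-08). The kinase Aurkb was at 22.5 and 26.6, 39.8 and 32.8 and 133 and 127. Incenp, the scaffold, changed least of the 4 (-1.08 ± 0.13), from 145 and 160.4 CPM in TIM-3+ to 79.4 and 64.9 in Bcl6+ libraries, and did not differ between Bcl6+ and DN at this threshold (-0.16, edgeR adjusted p = 0.49).

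Kinetochore genes link chromosomes to spindle fibres. All 8 were lower in Bcl6+ than in TIM-3+ TILs, with a median of -2.22. Spc25, a subunit of the Ndc80 complex that grips the microtubule, was at 10.7 and 19.8 CPM in Bcl6+, 15.4 and 21.1 in DN and 72.5 and 76.8 in TIM-3+ libraries. Here the Bcl6+ and DN libraries overlapped, and both sat below TIM-3+. Cenpa, the histone H3 variant that marks centromeres, had the highest FPKM of the set in TILs and the smallest fold: 149 and 128, 166 and 168 and 303 and 307 CPM. In a list of 20 other kinetochore genes, the inner kinetochore and Mis12 complex, 14 were lower and 1 higher in Bcl6+ than in TIM-3+ TILs. The exception was Zwint (0.69, edgeR adjusted p = 0.00011).

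The 6 genes grouped as mitotic kinesins encode proteins that slide, cap or shorten microtubules. All 6 were lower in Bcl6+ than in TIM-3+ TILs, by 2-fold or more in 4. The kinesins Kif20a and Kif23 are counted with cytokinesis. Kif22, a chromosome arm motor, was at 17.4 and 19.6 CPM in Bcl6+, 29.9 and 36.6 in DN and 111 and 119.9 in TIM-3+ libraries, and was lower in Bcl6+ than in both other groups. Kif11, the motor that pushes spindle poles apart, was at 44.1 and 53.3, 64.6 and 70.8 and 227 and 212 CPM. Kif15 and Kif20b stood apart from the other kinesins: Kif15 was at 98.5 and 105 CPM in Bcl6+, 76.5 and 75.7 in DN and 165 and 134 in TIM-3+ libraries. Kif20b was at 46.8 and 45.1, 29.7 and 31.0 and 71.8 and 75.7 CPM. For both genes the DN libraries were the lowest of the 3 groups, with no overlap, and on a TPM scale (transcript shares) neither was called between Bcl6+ and TIM-3+.

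The genes of the central spindle and cytokinesis moved with the rest. Racgap1, part of the centralspindlin complex, was at 108 and 113 CPM in Bcl6+, 133 and 130.5 in DN and 263 and 293 in TIM-3+ libraries. Kif20a, a kinesin of the midzone, was at 16.0 and 11.8, 26.7 and 26.3 and 89.5 and 89.2 CPM, a log2 change of -2.68 ± 0.18 between Bcl6+ and TIM-3+ (edgeR adjusted p = 5.7e-08). Among the spindle assembly factors, Tacc3, which stabilises bundled microtubules, had the highest mean FPKM over the 6 libraries, although Plk1 was above it in TIM-3+ TILs (57.9 ± 6.90 against 52.9 ± 3.83 FPKM). The CPM of Tacc3 were 54.4 and 44.7, 61.6 and 60.6 and 201 and 182. Of the spindle checkpoint, the kinase Ttk was at 5.73 and 7.40, 10.9 and 12.2 and 32.4 and 36.0 CPM. Bub3 was at 176 and 205, 181 and 177 and 249.9 and 252. Top2a, the topoisomerase that untangles sister chromatids, was at 144 and 148, 192 and 193 and 565 and 599 CPM, and both groups with low values were tight.

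**Figure D2:**
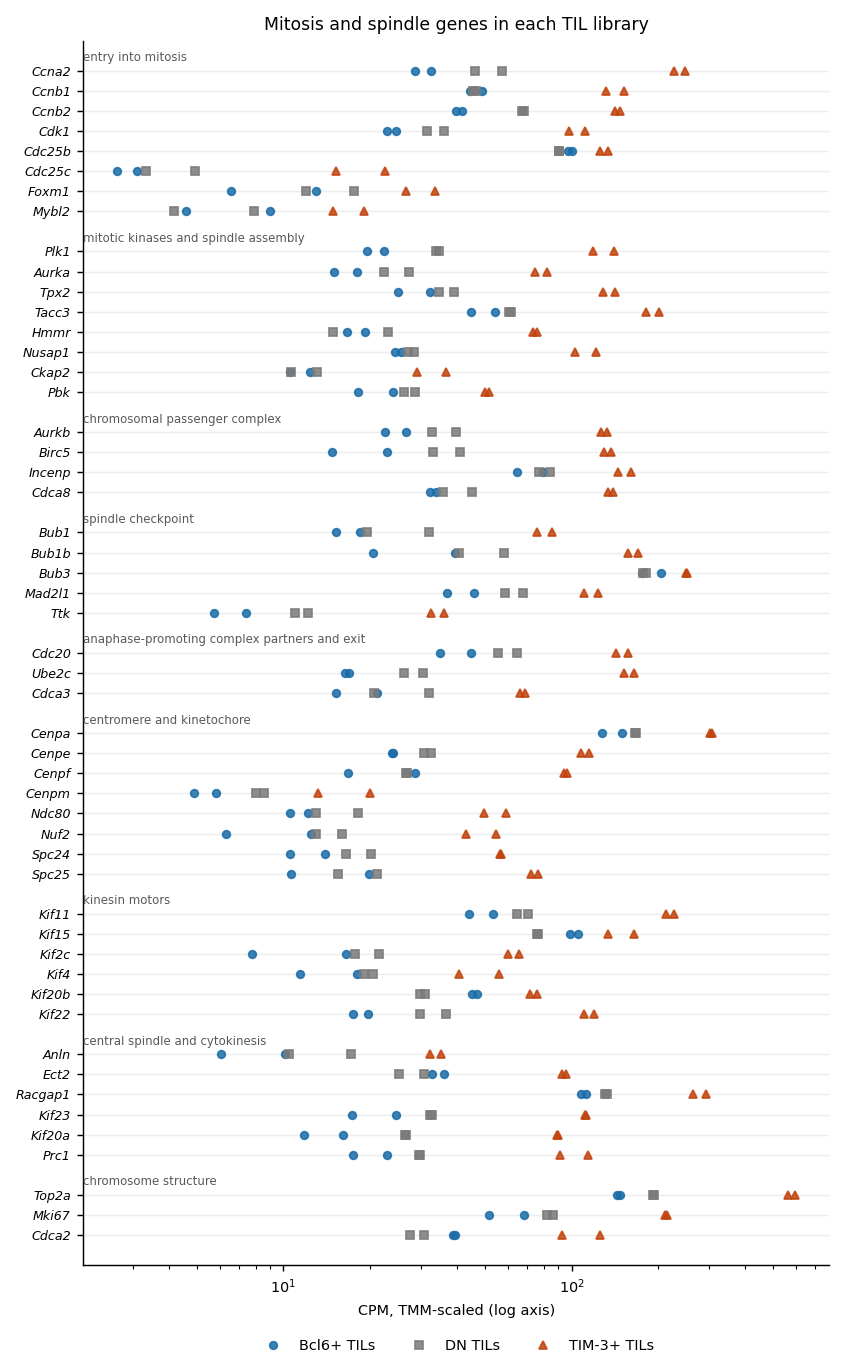
CPM on a log axis (x) for each of the 51 genes (y), grouped by role, in the 6 TIL libraries (1 symbol per library). TIM-3+ libraries lie to the right of the Bcl6+ libraries for all 51 genes, while Bcl6+ and DN libraries lie close together and overlap for 10.

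TIM-3+ TILs were higher than DN TILs for the same 51 of 51 genes, by at least 2-fold for 43, with a median log2 change of 1.65 and a range from 0.49 for Bub3 to 2.48 for Ube2c. Of all tested genes, 14.9% were higher and 13.2% lower. This comparison and the one between Bcl6+ and TIM-3+ share the TIM-3+ libraries, and the one between Bcl6+ and DN shares the other groups with them.

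Between Bcl6+ and DN TILs the difference was small. Of the 51 genes, 16 were lower in Bcl6+ (7.69% of all tested genes were lower), 2 were higher (6.49% of all), and 33 were not called, with a median log2 change of -0.49. The 16 were spread over 8 of the 9 roles, and none of the 8 kinetochore genes was among them. Birc5 had the largest change (-0.98 ± 0.19, edgeR adjusted p = 0.003), followed by Kif20a (-0.93 ± 0.18, 0.0027) and Kif22 (-0.84 ± 0.16, 0.0022). Ttk had a change of -0.81 ± 0.26 that did not reach the threshold (edgeR adjusted p = 0.051). The 2 higher genes were Kif20b (0.60 ± 0.15, edgeR adjusted p = 0.013) and Kif15 (0.42 ± 0.12, edgeR adjusted p = 0.03). Without DN library 1 there were 10 lower and 0 higher calls, and Birc5 was not among them. Without DN library 2 there were 9 lower and 0 higher. In all, 43 of 51 genes had mean levels in the order Bcl6+, DN, TIM-3+, and in the other 8 DN was lowest. Over all tested genes 25.0% had that order.

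Most replication and condensin or cohesin genes were also lower in Bcl6+ than in TIM-3+ TILs, with smaller median changes than the mitosis genes. Of 22 DNA replication genes, 20 were lower and 1 was higher (Rfc3) in Bcl6+ than in TIM-3+ TILs, with a median of -1.14. Mcm5, a subunit of the replicative helicase, averaged 131 ± 11.1 CPM in Bcl6+ and 360.1 ± 3.39 in TIM-3+ (SD, n = 2). Of 22 condensin and cohesin genes, 14 were lower and 1 was higher (Nipbl), with a median of -0.63, and the lower genes included the condensin subunits Ncapd2 (-1.71), Ncapg (-1.57) and Smc2 (-1.53). Of 18 centrosome and centriole genes, 11 were lower and 0 higher. Regulators above mitosis did not move as 1 block. Of 10 genes listed as G1 cyclins and kinases, 5 were lower and 4 higher in Bcl6+. The higher ones included Ccnd1 (cyclin D1, 3.29) and Myc (0.66), a transcription factor kept in that list. Of 13 CDK inhibitors and brakes, 3 were higher, among them the transcription factor Foxo1 (1.44), and 4 lower, among them Cdkn1a (-1.75). All 8 tested macrophage and monocyte markers were higher in Bcl6+ than in TIM-3+ TILs, led by Cd68 (2.48), Apoe (2.88) and Lyz2 (1.99), and their part in the mitosis values was not tested. Of the lymphoma and thymocyte markers, the 5 genes listed in TILs summed to 253 to 255 CPM in Bcl6+, 339 to 360.1 in DN and 496 to 508 in TIM-3+ TILs, mostly from Themis, which T cells also express. Rag1 and Rag2 were at 0 to 1.25 CPM in every TIL library. The thymocyte gene Dntt went the other way from the sum. It was at 13.3 and 19.2 CPM in Bcl6+, 14.3 and 15.8 in DN and 2.15 and 3.75 in TIM-3+ libraries. Of the 3 tested genes of this list, 1 was higher and 1 lower in Bcl6+ than in TIM-3+ TILs, with a median of 0.05. B cell markers summed to 25.8 to 28.4 CPM in Bcl6+, 10.6 to 14.4 in DN and 3.22 to 3.85 in TIM-3+ TILs. Stromal and endothelial markers were at 88.2 to 117, 85.1 to 95.0 and 37.7 to 45.9 CPM, and erythroid markers at 44.7 to 48.8, 73.9 to 77.8 and 20.9 to 27.8. The part of these lists in the mitosis values was not tested either.

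With Prdm1 overexpression 0 of the 51 genes passed an adjusted p of 0.05 (edgeR quasi-likelihood test over 9947 genes, with the libraries taken as unpaired), and the smallest adjusted p was 0.084. Few genes were called in this experiment, 1.16% of all tested genes higher and 0.201% lower. At an unadjusted p under 0.05 there were 15 members, and DESeq2 called 1, Ndc80. With the replicate numbers as a block, which mark no stated pairing, 11 members were called, among 1659 of all tested genes. The median log2 change was 0.30 (median of all genes 0.02), with 43 positive and 8 negative values. The groups did not overlap for 32 genes, 30 of them higher (29.3% of all tested genes) and 2 lower (21.7%).

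Ndc80, a kinetochore subunit that contacts microtubules directly, had the largest value. It was at 59.6 and 65.9 CPM in controls and 103 and 115 in Prdm1-overexpressing libraries (0.80 ± 0.18, edgeR adjusted p = 0.084). Kif20a was at 67.4 and 74.3 and 97.9 and 138 (0.74 ± 0.21, edgeR adjusted p = 0.14). Hmmr, a spindle assembly factor, was at 57.6 and 57.7 and 91.9 and 97.9. Ect2, which activates RhoA at the cleavage site, was at 58.3 and 55.3 and 82.0 and 98.5. For these 4 genes both overexpressing libraries were above both controls. The lowest value was that of Ube2c, at 51.5 and 29.1 CPM in controls and 37.6 and 13.4 in overexpressing libraries (-0.66 ± 0.48, edgeR adjusted p = 0.51), and here the groups overlapped. Cenpm was at 11.9 and 7.89 and 11.2 and 4.05, also overlapping.

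The 2 Prdm1-overexpressing libraries differed from each other in short transcripts. Among the 10 members with the shortest annotated transcripts (up to 2191 bases), 8 were lower in library 2 than in library 1, with a median log2 ratio of -0.56, against 0.16 for the other 41. In the controls of the Bcl6 experiment all 10 were lower in library 2, by less (median -0.18, against -0.02 for the others), and in the other 5 groups the median of the 10 was -0.16 to 0.05. Library 1 of this group left out, Kif20a and Ndc80 were called higher and Ube2c lower. Neutrophil markers were at 94.4 to 106 CPM in Prdm1-overexpressing and 4.66 to 6.70 in control libraries, mostly Mpo. The lymphoma and thymocyte list was at 718 to 814 and 398 to 429 CPM, with Rag1 at 10.7 and 5.31 and 0.318 and 4.17, and the macrophage and monocyte list at 202 to 359 and 480.0 to 551. Of the 19825 listed genes, 524 and 531 were at 0 in the Prdm1-overexpressing libraries and 1570 and 2177 in controls. The part of these cells and of this difference in the mitosis values was not tested.

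In Bcl6-overexpressing cells most of the mitosis genes were lower than in controls. Of the 51, 35 were lower (23.4% of all tested genes were lower), 3 were higher (25.4% of all), and 13 were not called, with a median log2 change of -0.72 (median of all genes 0.00). The groups were apart for 39 genes in the lower and 9 in the higher direction. The share of all tested genes with groups apart was not counted in this experiment. All 6 genes grouped as kinesin motors, all 8 spindle assembly genes and all 5 checkpoint genes were lower. So were 4 of 8 entry genes, 4 of 8 kinetochore genes, 4 of 6 cytokinesis genes, 2 of 4 passenger complex genes and 2 of 3 chromosome structure genes. The kinesins Kif20a and Kif23 are counted with cytokinesis, and Kif23 was not called. Of the 3 partners of the anaphase-promoting complex, 0 were called lower. With trends on transcript length and GC removed, a setting chosen after seeing the data, the checkpoint genes Bub3, Mad2l1 and Ttk, the kinesin Kif15 and the spindle assembly factor Hmmr were no longer called. Without control library 1, and also without control library 2, 28 genes were lower.

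**Figure D3:**
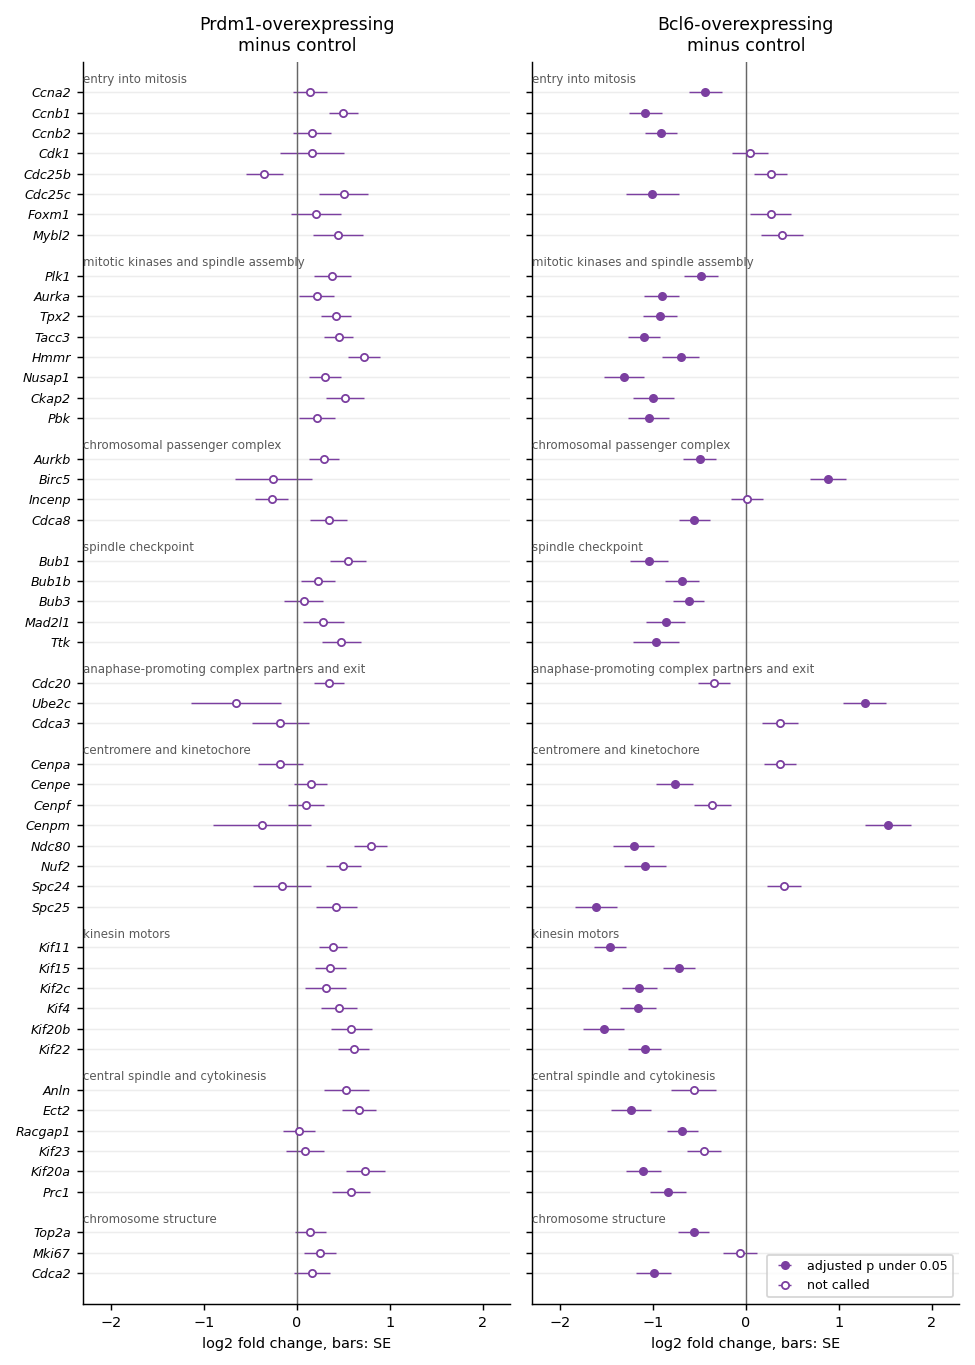
Log2 fold change of each gene (x axis, bars are the edgeR standard error, 2 libraries per group) in Prdm1-overexpressing (left) and Bcl6-overexpressing (right) OT-I cells minus their own controls, by role (y axis). Filled points passed an adjusted p of 0.05. None of the 51 did on the left, and 38 did on the right, 35 of them below 0.

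The largest fall was that of Spc25, at 107 and 93.1 CPM in controls and 24.4 and 40.7 in Bcl6-overexpressing libraries (-1.62 ± 0.23, edgeR adjusted p = 6.3e-06). Kif20b fell from 90.2 and 77.3 to 23.0 and 34.8 CPM (-1.53 ± 0.22, edgeR adjusted p = 9.2e-06). Kif11 fell from 217 and 243 to 83.4 and 82.9 CPM (-1.47 ± 0.17, edgeR adjusted p = 6.2e-07), and its replicates were tight on both sides. Kif22, the member kinesin with the highest FPKM in this experiment, fell from 179 and 177 to 76.2 and 91.0 CPM. Tacc3 fell from 279 and 276 to 137 and 122. Of the abundant genes, Ccnb2 fell from 226 and 199.9 to 105 and 121 CPM. Racgap1 fell from 276 and 301 to 191 and 168. Top2a fell from 443 and 463 to 289 and 325, and for all of these genes the groups did not overlap. Top2a was not called without either control library, nor Racgap1 without control library 2.

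Cenpm, Ube2c and Birc5 rose. Cenpm, an inner kinetochore subunit, was at 11.5 and 11.0 CPM in controls and 32.8 and 32.0 in Bcl6-overexpressing libraries (1.53 ± 0.25, edgeR adjusted p = 3.9e-05). Ube2c was at 42.9 and 26.2 and 95.1 and 72.9 (1.28 ± 0.23, edgeR adjusted p = 0.00012). Birc5 was at 81.6 and 57.8 and 129.6 and 127 (0.88 ± 0.19, edgeR adjusted p = 0.00085). Each was higher in both overexpressing libraries than in either control, and Birc5 was not called without control library 2. In the promoters printed above, Birc5 held neither motif, Cenpm a CHR farther from the start, and Ube2c a CHR and CCAAT boxes as in Kif11 and Kif22. Of the 6 genes whose windows held neither motif, Birc5 was called higher and Mad2l1, Nuf2, Nusap1 and Tacc3 were called lower. Mybl2 was not called (24.1 to 25.3 CPM in controls and 31.2 to 33.6 in Bcl6-overexpressing libraries). A relation between the motifs and the direction was not tested. Cdk1 (86.5 and 63.9 against 79.6 and 75.1 CPM), Cdc20 (207 and 196 against 178 and 140.0), Mki67 (262 and 278 against 212 and 304) and Incenp (137 and 167 against 152 and 155) did not pass the test.

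The change with Bcl6 overexpression followed the base composition of the transcript. Across the 51 genes, which share the same 4 libraries, Spearman's rho between the log2 change and the GC content of the longest annotated transcript was 0.59. The 17 genes of lowest GC had a median change of -0.998 and the 17 of highest GC of -0.345. Spc25, Kif20b and Kif11 are among the AT-richest (42.6%, 39.4% and 42.2% GC), and Cenpm and Ube2c among the GC-richest (55.9% and 55.5%). When the trends of library ratios on transcript length and GC over all genes were removed, a setting chosen after seeing the data, rho was 0.10, the median change was -0.46, and 24 genes were lower and 3 higher. Of the 38 genes called at first, 25 kept their call, among them Ube2c (0.85), Birc5 (1.09), Spc25 (-1.21), Kif20b (-0.87) and Kif11 (-0.89). The 13 that lost it were Bub3, Ccna2, Cdc25c, Cdca8, Cenpe, Cenpm, Hmmr, Kif15, Mad2l1, Prc1, Racgap1, Top2a and Ttk. Cenpm was among them (0.42, edgeR adjusted p = 0.12), while Cenpa (0.58) and Cdc20 (-1.19) gained one. Spearman's coefficient with GC was -0.47 with Prdm1 overexpression and -0.01 between Bcl6+ and TIM-3+ TILs. The 2 Bcl6-overexpressing libraries also differed from each other with GC. Over the 51 genes, rho between GC and the log2 ratio of library 2 to library 1 was -0.58 in this group. In the other groups that rho was -0.25 to 0.12. The cause of these trends was not tested.

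**Figure D4:**
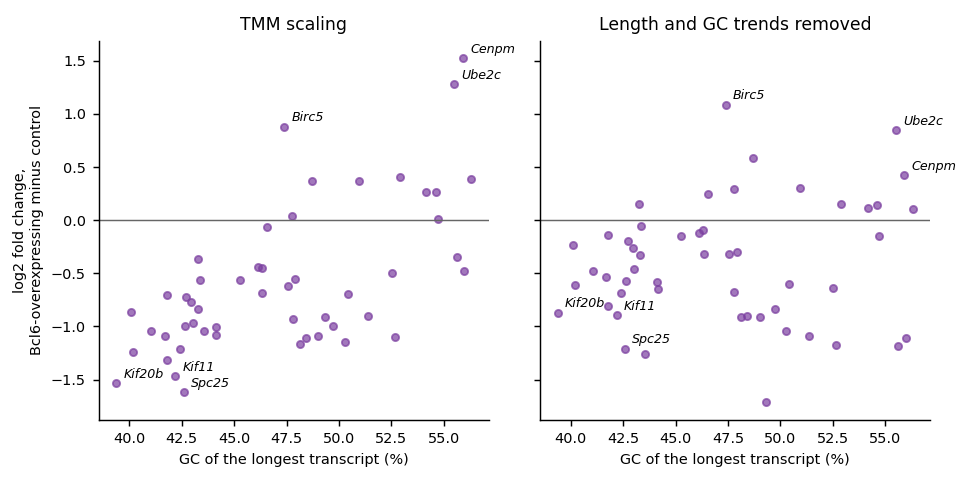
Log2 fold change, Bcl6-overexpressing minus control (y axis), against the GC percent of each gene's longest transcript (x axis) for the 51 genes, as tested (left) and with length and GC trends removed (right). The rise from left to right in the first panel, rho 0.59, drops to 0.10 in the second, and most genes stay below 0.

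The other cell cycle lists with Bcl6 overexpression were mixed. Of 22 DNA replication genes 11 were lower and 2 higher (Gins2 and Gmnn), of 22 condensin and cohesin genes 13 were lower and 2 higher (Pttg1 and Espl1), and of 18 centrosome genes 7 were lower and 0 higher. Of the 17 genes in the list named for the anaphase-promoting complex core, 7 were higher, led by Anapc11 (2.49) and Anapc13 (3.82), and 4 lower. Of 13 CDK inhibitors and brakes, 5 were higher and 2 lower, against 25.4% and 23.4% of all tested genes. The CDK inhibitors Cdkn1b (p27, 1.87) and Cdkn1a (p21, 1.24) and the quiescence factor Klf2 (2.23) were higher. That list summed to 1916.5 to 1997 CPM in controls and 2022 to 2040 in Bcl6-overexpressing libraries. In the Prdm1 experiment it summed to 2057 to 2113 in controls and 3861 to 4096 in overexpressing libraries, with 1 of 13 genes called higher. The median log2 change of the 13 was -0.12, so most of the list did not rise there. Macrophage and monocyte markers summed to 173 to 176 CPM in controls and 745 to 881 in Bcl6-overexpressing libraries, with 9 of 9 tested higher, and neutrophil markers to 2.91 to 4.48 and 80.6 to 92.6. The lymphoma and thymocyte list was at 375 to 389 in controls and 136 to 195 in Bcl6-overexpressing libraries, again mostly Themis, with Rag1 at 1.62 and 2.02 and at 0 in both. Erythroid markers were at 0.984 to 1.18 in controls and 15.6 to 20.9 CPM in Bcl6-overexpressing libraries, and stromal and endothelial markers at 119 to 131 and 64.4 to 67.6. Of the 15216 listed genes, 95 and 69 were at 0 in the 2 control libraries and 1900 and 2051 in the Bcl6-overexpressing libraries. The part of these cells and of this difference in the mitosis values was not tested.

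Set side by side, the 2 overexpression experiments share no library. Of the 51 genes, 40 had a positive value with Prdm1 and a negative one with Bcl6, 8 had the opposite pair, 3 were positive in both and 0 negative in both. With length and GC trends removed, these counts were 33, 8, 4 and 6. Spearman's rho between the changes was -0.71 over the 51 genes, and -0.62 with those trends removed, and the genes are not independent replicates. Neither the counts nor this rho were taken over all tested genes, so the opposition cannot be called particular to the mitosis genes. Spearman's rho of the change with transcript GC was -0.47 with Prdm1 and 0.59 with Bcl6 overexpression. In the Prdm1 experiment none of the changes of the 51 genes passed the test.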

How the data were processed

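Each table held counts and FPKM per gene, deposited by the authors, for sorted mouse CD8+ T cells. Total RNA was extracted with Trizol, per the labels' protocols. Per the submitters' processing notes, Bowtie2, featureCounts, Subread, edgeR and DESeq2 were used for TILs and HISAT2, featureCounts, RSEM and DESeq2 for OT-I cells, with build mm10. Versions and the use of strand are not stated there, so reads of overlapping or antisense genes cannot be told apart. Counts were whole numbers. In the TIL and Bcl6 experiments, the tables stop at a summed count of 20. Deposited FPKM were scaled to a total other than the listed counts. FPKM here serve to filter genes, to compare levels between genes and as input to the alternative limma fits. Where FPKM of the same gene are given for several groups, as for Ccnb2, they carry that scaling.

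Counts were tested with edgeR 4.0.16 (R 4.3.3), quasi-likelihood, TMM scaling, after removal of genes whose mean fell below 1 FPKM. This left 9748 genes in TILs (1 fit of 6 libraries), 9947 with Prdm1 and 9669 with Bcl6 overexpression. P-values are two-sided, with Benjamini-Hochberg adjustment over those genes and a threshold of 0.05. Errors of log2 changes are standard errors, and errors of levels are SD of 2 libraries. The script was tested on simulated data. Alternatives used DESeq2 1.42.0 and limma 3.58.1, other scalings, filters, pseudocounts (1 and 0.1), a replicate block and left-out libraries. Coordinates and transcript GC are from GENCODE M21 (GRCm38).

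The 51 genes and the 17 other lists were chosen with earlier results of these data known. Genes were named by this rule: the 4 largest changes of a comparison, the highest FPKM of each role, calls against the majority, and at most 3 of smallest p per other list. Exceptions within a list and Cdk1, Cdc25b, Plk1 and Aurkb in TILs were named after their values were seen. So were Ube2c and Cenpm with Prdm1 overexpression, and Cdk1, Mki67, Incenp, Kif23 and Mybl2 with Bcl6 overexpression.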

Additional observations from a re-analysis of the deposited data

How the results depend on the processing

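With 2 libraries per group, the results rest on few degrees of freedom. Between Bcl6+ and TIM-3+ TILs, 47 to 51 genes were lower in every setting that tested all 51, and a 5 FPKM filter tested and called 42. Leaving out libraries gave 49 to 51 lower genes there and 47 to 51 higher genes between TIM-3+ and DN. Between Bcl6+ and DN it gave 9 to 19 lower and 0 to 2 higher. TPM values gave 10 lower and 1 higher there. The removal of the length trend, of the length and GC trends, the absence of a filter, and log2(FPKM + 1) or log2(FPKM + 0.1) each gave 1 higher. With Prdm1 overexpression, leaving out libraries gave 0 to 2 higher and 0 to 1 lower genes, and the length trend removed gave 1 higher, as did DESeq2. With Bcl6 overexpression it gave 28 to 36 lower and 2 to 4 higher. The absence of a filter, and log2(FPKM + 1), gave 5 higher, and trends on length and GC, added after seeing the data, left 24 lower. No gene's direction reversed among called genes. The replicate numbers correlated at 0.02 to 0.04 in TILs, 0.28 with Prdm1 and -0.06 with Bcl6 overexpression, with 2 pairs each, and mark no stated pairing. As a replicate block, they changed the result with Prdm1 overexpression from 0 genes to 10 higher, among them Ndc80, Kif20a, Hmmr and Ect2, and 1 lower (Ube2c), and gave 34 lower with Bcl6 overexpression, and 51 lower between Bcl6+ and TIM-3+. Total-count scaling moved the median of all genes to 0.19 between Bcl6+ and TIM-3+ and to -0.18 between TIM-3+ and DN, and TPM moved it to 0.26, -0.19 and, with Bcl6 overexpression, -0.32. All genes called higher and lower between Bcl6+ and TIM-3+ were 1857 and 1907, or 2896 and 1283 by total counts and 3455 and 1123 by TPM. Between TIM-3+ and DN they were 1454 and 1291, or 869 and 2173, and 819 and 2275. With Bcl6 overexpression they were 2459 and 2261, or 1741 and 3784 by TPM. With Prdm1 overexpression they were 115 and 20, or 171 and 121 by total counts, 191 and 84 by relative log expression and 1002 and 657 with the block. Without either Prdm1 control library, 7 or 3 genes were called in all. The causes were not tested. The members' counts of at least 56 reads limit the precision of the lowest, such as Cdc25c and Cenpm.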
